A study of Homo sapiens with 6 samples.

Results

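The families described here are the named families of splicing factors: the SF3A and SF3B subunits, the U2AF subunits, the SR proteins and their relatives (SRSF, or SFRS by the older names that the deposited table uses), the small nuclear ribonucleoprotein genes (SNRP and SNRNP), the pre-mRNA processing factors (PRPF) and the heterogeneous nuclear ribonucleoproteins (HNRNP). Every gene whose name in the table starts with one of these prefixes was taken, which gave 85 of 16444 entries: 9 SF3A and SF3B genes, 3 U2AF genes, 20 SR genes, 12 SNRP genes, 7 SNRNP genes, 13 PRPF genes and 21 HNRNP genes. The prefix rule used no measured value. All 85 were above 0 in all 6 lines, and 84 reached a value of 5 in at least 1 line, the exception being HNRNPCL1. Genes are given below by their current symbols, with the name in the table at first mention where it differs, which was the case for 22 of the 85.

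The study sequenced 1 single-end RNA library from each of 6 established lines of human breast cancer cells. CAL51 is labelled breast carcinoma from a pleural effusion (grown in 10% serum), SKBR3 and MDA-MB-415 adenocarcinoma from pleural effusions (20% serum, and 15% serum with insulin and glutathione), MDA-MB-453 metastatic carcinoma from a pericardial effusion (20% serum), T47D ductal carcinoma from a pleural effusion (10% serum) and UACC-812 ductal carcinoma (20% serum with EGF). The labels put the lines in no larger group, so each line was set against the 5 others, and line and medium cannot be told apart. Without replicates, the differences given here have no measure of error, and no test was made. All lines are labelled epithelial: EPCAM lay between 1329 and 3156 and KRT8 between 3962 and 55731, whereas CDH1, another epithelial marker, was at 0.823 in SKBR3. Of 5 epithelial markers, 4 in MDA-MB-453 lay at least 2-fold below the median of the other lines as deposited (15.9% of all genes did). So did 2 in CAL51 (14.5%), 2 in MDA-MB-415 (18.8%) and 1 in SKBR3 (33.2%). At least 2-fold above were 3 in UACC-812 (24.7%), 3 in T47D (18.1%) and 1 in MDA-MB-415 (19.7%). Of the markers of other cell types, CD3E was listed at 0 in all lines except SKBR3 (8.40), COL1A2 reached at most 1.52 and PTPRC at most 18.8, while CD14 stood at 176 in MDA-MB-415 and PDGFRB at 188 in CAL51. Of 5 measured fibroblast and stroma markers, 2 in CAL51 and 1 in MDA-MB-415 were at least 2-fold above every other line in the deposited values. The endothelial markers VWF and CDH5 were at 20.4 and 3.43 in MDA-MB-415 and at 2.30 and 10.3 in SKBR3, and VWF was at 2.23 in UACC-812, with values of at most 0.0549 elsewhere. Their part in the results was not tested.

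Splicing removes introns from pre-mRNA and is carried out by the spliceosome, a machine built from the U1, U2, U4, U5 and U6 small nuclear RNAs with their proteins. U1 marks the 5′ end of an intron, U2AF and the SF3A and SF3B proteins of the U2 particle mark its 3′ end and branch point, and the U4/U6.U5 tri-snRNP, which holds most PRPF proteins, brings the catalytic core. SR proteins bind exons and mostly favour their inclusion, and many hnRNP proteins oppose them. These genes are expressed in all cells, several of them (SF3B1, U2AF1 and SRSF2) are mutated in blood cancers, and SRSF1 and SRSF3 act as oncogenes in some experimental systems.

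Values are exon RPKM added up per gene, a unit inferred from the deposited numbers, so levels of different genes are not compared. A difference is the log2(value + 1) of a line minus the median of the 5 other lines. In bulk RNA, fewer cells of a kind and less RNA per cell cannot be told apart. Depth recovered from the table was 25600000 to 36500000 reads per library, and 3 reads in a 150 bp exon were worth 0.548 to 0.781, far below nearly all values given here.

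The libraries differed as a whole, and every count below has to be read against that. As deposited, the median difference over all 16418 genes used was -0.46 for SKBR3, 0.23 for CAL51, 0.19 for UACC-812, 0.09 for T47D, -0.01 for MDA-MB-415 and 0 for MDA-MB-453. TMM scaling, which sets the bulk of genes equal between libraries, used factors of 0.658 for SKBR3, 0.933 for MDA-MB-415, 0.999 for MDA-MB-453, 1.12 for T47D, 1.15 for UACC-812 and 1.27 for CAL51, and brought these medians to within 0.01 of 0. The lines also differed along the base composition of transcripts, in the families as in other genes. Among 10959 other well expressed genes (mean log2 value above 3) with a transcript, those under 43.8% GC had a median TMM-scaled difference of 0.63 in SKBR3 and those over 53.8% had -0.47, while in UACC-812 the same classes had -0.45 and 0.44. In SKBR3 the 36 members under 43.8% GC had a median of 0.15 and the 22 members over 53.8% had -0.57. The same 2 classes of members had -0.27 and 0.16 in UACC-812, but 0.28 and 0.32 in CAL51. Differences are therefore given under 3 treatments of the values, in this order: as deposited, after TMM scaling, and after TMM scaling with each line's trend along GC content taken off. What produced the GC trend was not tested.

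**Figure D1:**
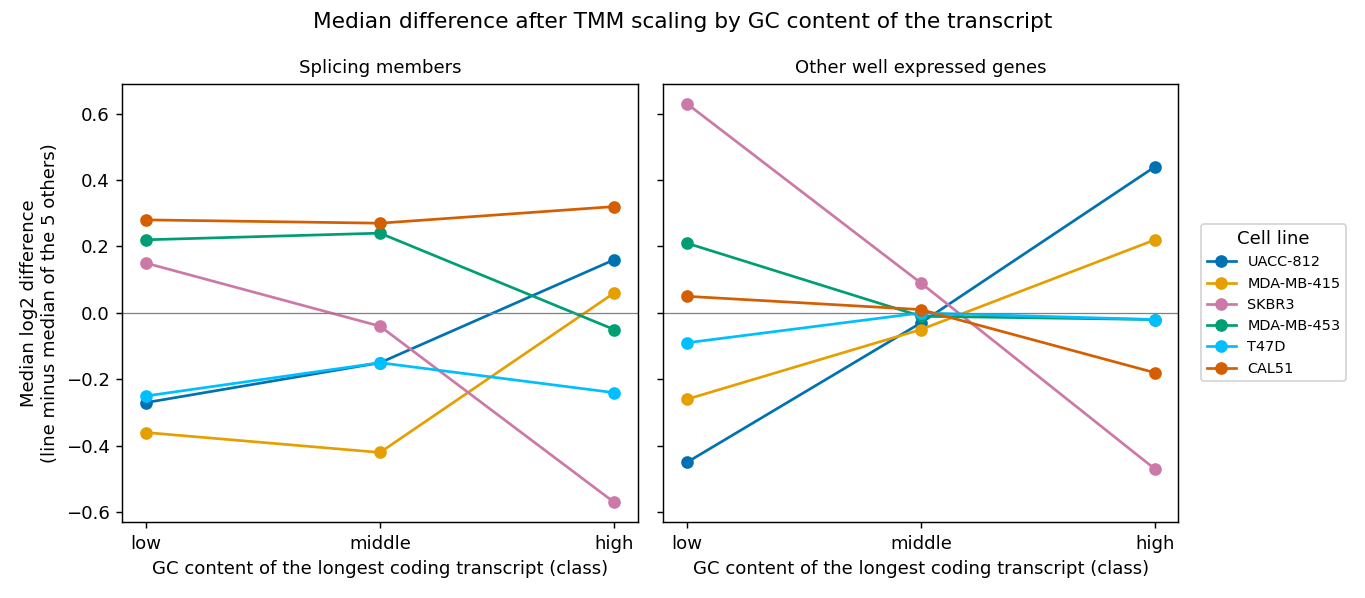
Median difference of each line from the 5 others after TMM scaling (y axis, log2 units) for genes in the low, middle and high class of transcript GC content (x axis), for the splicing members at the left and for other well expressed genes at the right. Each coloured line is 1 cell line: SKBR3 slopes down and UACC-812 slopes up in both panels, whereas CAL51 stays between 0.27 and 0.32 among the members.

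The members as a whole were highest in CAL51, but the PRPF family was highest in T47D, with medians of 0.39, 0.49 and 0.54 in T47D and 0.30, 0.10 and -0.04 in CAL51 under the 3 treatments. The median difference over the 85 members was 0.66 in CAL51 as deposited, 0.28 after TMM scaling and 0.39 with the GC trend removed, against 0.23, 0 and 0 over all genes. After TMM scaling 33 of the 85 members had their highest value in CAL51, where 18.3% of all genes did. With all 3 treatments of the values, 60 of 84 members (71.4%) lay above the median of the other lines in CAL51, against 45.8% of other well expressed genes. MDA-MB-453 had 47 of 84 members above in all 3 treatments (56.0%, against 43.8%), with member medians of 0.18, 0.21 and 0.13. On the low side stood MDA-MB-415, with 47 of 84 below in all 3 treatments (56.0%, against 45.9%) and medians of -0.33, -0.25 and -0.18. SKBR3 had 41 of 84 below in all 3 (48.8%, against 40.8%), but its member median was -0.76 as deposited, -0.07 after TMM scaling and -0.28 with the GC trend removed. In UACC-812 the 3 medians were 0.09, -0.13 and 0.02, and in T47D 0.06, -0.22 and -0.13, so neither median kept its sign across the treatments. T47D still had 40 of 84 members below in all 3 (47.6%, against 41.2%), a share close to that of SKBR3. UACC-812 had 30 above and 30 below in all 3 (35.7% each, against 41.5% and 37.7%).

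**Figure D2:**
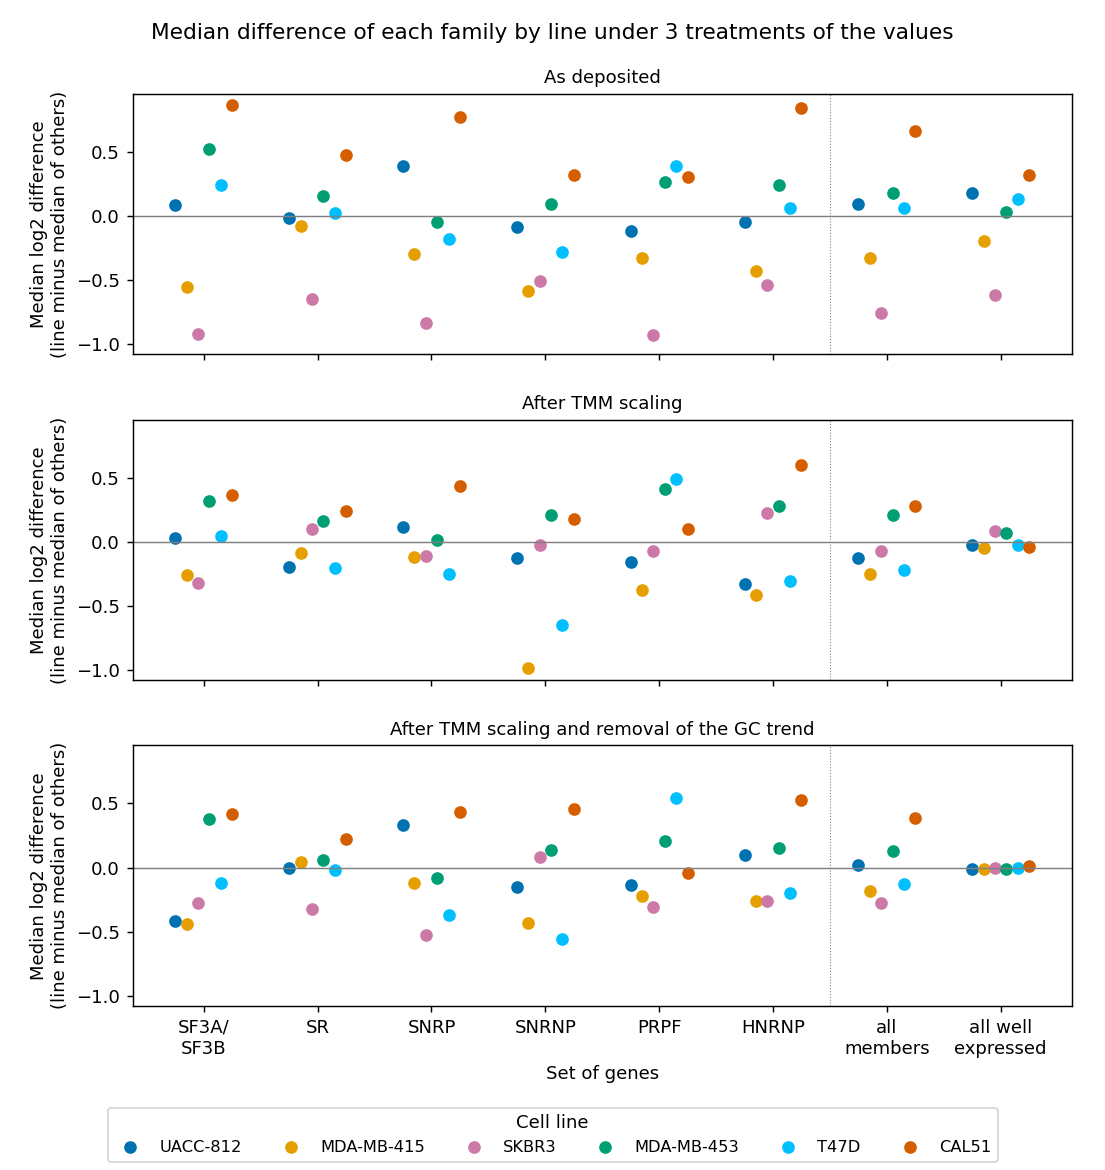
Median log2 difference of a line from the median of the 5 others (y axis) for 6 families, for all members and for all well expressed genes (x axis), as deposited (top), after TMM scaling (middle) and after TMM scaling with removal of the GC trend (bottom). Each point is 1 cell line: over all members CAL51 is the highest in every panel, at 0.66, 0.28 and 0.39, and SKBR3 is the lowest in the top and bottom panels, at -0.76 and -0.28, but not in the middle one, at -0.07.

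Changes of 2-fold or more were not more frequent in the families than in the whole table for any line, apart from the higher genes of CAL51 as deposited. As deposited, 26 of 85 members (30.6%) exceeded the median of the others by 2-fold or more in CAL51, where 26.0% of all genes did. The counts were 8 for UACC-812 (background 24.7%), 4 for MDA-MB-415 (19.7%), 3 for MDA-MB-453 (12.9%), 2 for SKBR3 (9.41%) and 2 for T47D (18.1%). At least 2-fold below were 28 members in SKBR3 (32.9% of the 85, background 33.2%), 10 in MDA-MB-415 (18.8%), 4 in UACC-812 (10.3%) and 1 each in MDA-MB-453 (15.9%), T47D (10.1%) and CAL51 (14.5%). The count below in SKBR3 is thus near the share of the whole table. After TMM scaling the counts above were 14 for CAL51 (background 18.9%), 9 for SKBR3 (20.1%), 7 for MDA-MB-415 (21.7%), 5 for MDA-MB-453 (13.5%), 4 for UACC-812 (20.5%) and 2 for T47D (14.6%). The counts below were 11 for MDA-MB-415 (16.0%), 8 for SKBR3 (18.1%), 6 for UACC-812 (13.5%), 3 for T47D (12.6%), 2 for CAL51 (18.9%) and 1 for MDA-MB-453 (15.2%). Every one of these TMM-scaled shares lies below its background.

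The members differed less between lines than the well expressed genes did, by their median range. The well expressed genes were not matched to the members in level, and the part of level in this was not tested. The median range over the 6 lines was 1.31 log2 units for the 85 members after TMM scaling, a 2.48-fold span, against 2.11 units (4.32-fold) for 11614 well expressed genes. With the GC trend removed it was 1.30 against 2.01. As deposited it was 1.63 against 2.26. After TMM scaling a range under 1 unit was found for 21 of 85 members (24.7%) and 7.51% of well expressed genes, and a range over 2 units for 11 members (12.9%) and 54.2%. As deposited, the members had no excess of ranges under 1 unit, with 4 of 85 (4.71%) against 5.61%. Ranges over 2 units were then found for 25 members (29.4%) and 58.9% of well expressed genes. HNRNP genes had the narrowest median range of the families after TMM scaling, 1.14 units, and SNRP genes the widest, 1.55.

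**Figure D3:**
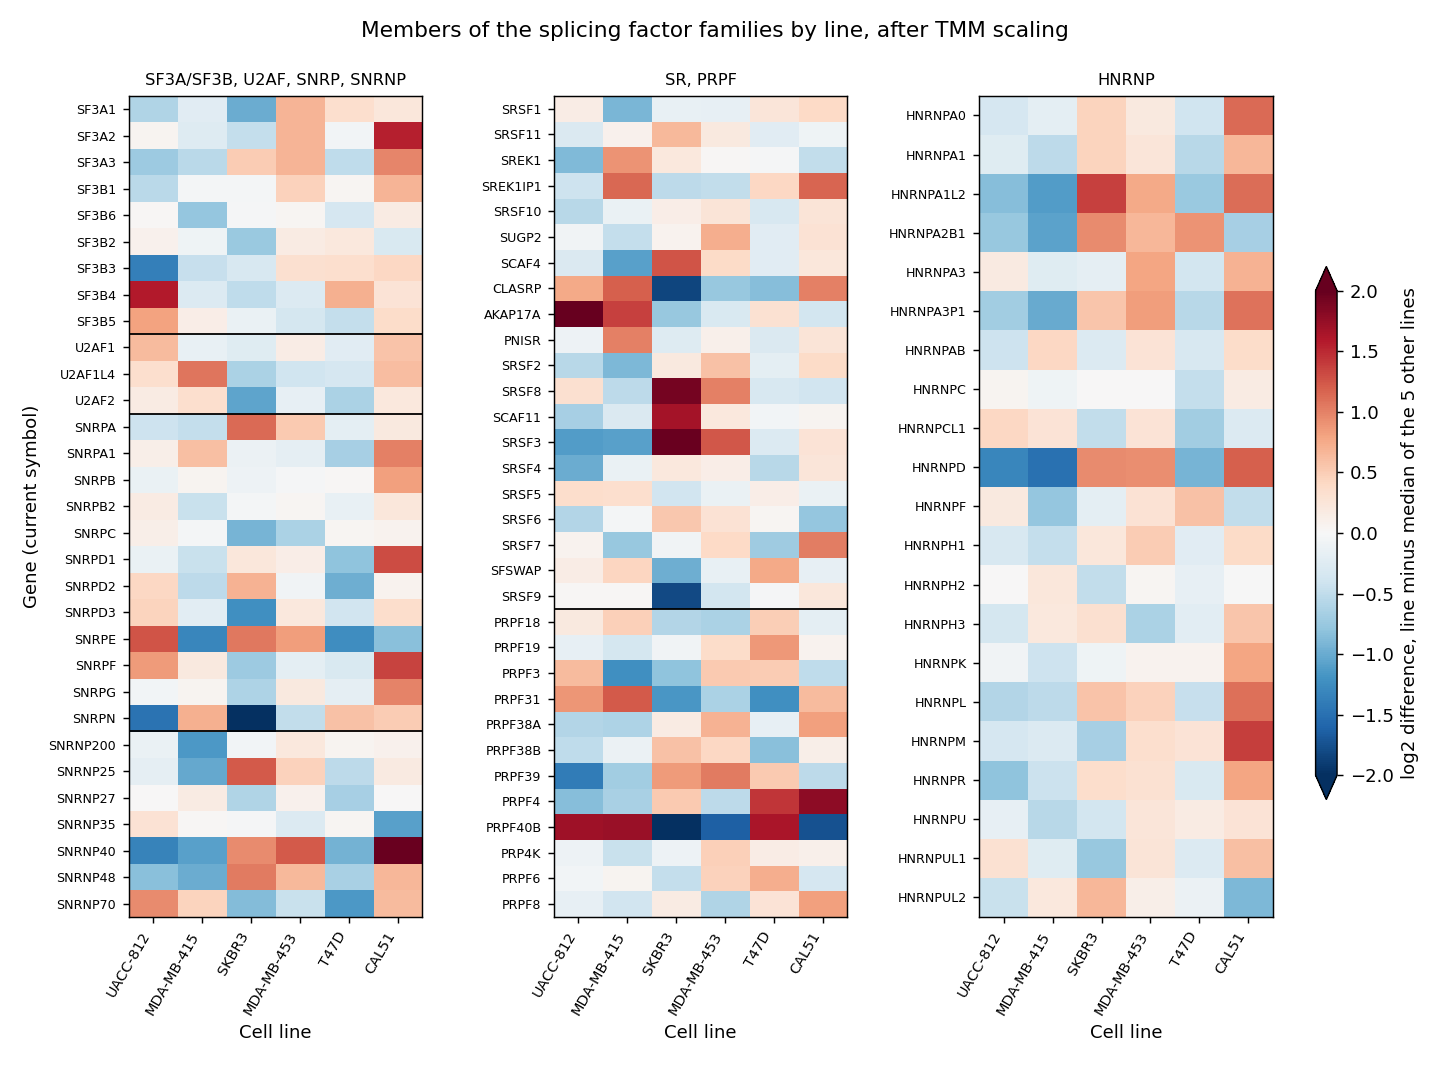
TMM-scaled log2 difference of each line from the median of the 5 others (colour, cut at 2 units either way) for 84 of the 85 members (rows, current symbols) in the 6 lines (columns), with black lines between families. The HNRNP panel is mostly red in the CAL51 column, and the darkest cells are single genes such as SNRPN, AKAP17A, PRPF40B, SNRNP40 and SRSF3.

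Members that were 2-fold or more from the others under all 3 treatments numbered 11 above in CAL51 (13.1%, against 14.3% of other well expressed genes): HNRNPA0, HNRNPD, HNRNPL, HNRNPM, PRPF4, SF3A2, CLASRP (SFRS16), SRSF7 (SFRS7), SNRNP40, SNRPD1 and SNRPF. PRPF40B was the 1 such member below in CAL51 (background 13.3%). SKBR3 had SRSF3 (SFRS3) and SRSF8 (SFRS2B) above (8.23%) and PRPF40B, CLASRP, SRSF9 (SFRS9), SNRPD3 and SNRPN below (14.5%). In MDA-MB-415, PRPF40B and AKAP17A (SFRS17A) lay above (14.4%) and PRPF3, SCAF4 (SFRS15), SNRNP200 and SNRNP25 below (14.8%). In UACC-812, PRPF40B, SF3B4, AKAP17A and SNRPE lay above (13.0%) and SF3B3 and SNRPN below (8.86%). PRPF4 and PRPF40B lay above in T47D (10.2%), where PRPF31 lay below (9.36%), and in MDA-MB-453 SNRNP40 lay above (9.73%) and PRPF40B below (13.2%). By the stricter rule of 2-fold beyond every other line after TMM scaling, HNRNPM and SNRPD1 stood out in CAL51 (background 6.54%), SCAF11 (SFRS2IP) above (4.82%) and SRSF9 and SNRPN below (3.79%) in SKBR3, and SNRNP200 below in MDA-MB-415 (2.84%). With the GC trend removed, SRSF9 and SNRNP200 kept such a gap (background 3.72% and 2.92%), while the gaps to the next line were 0.91 for HNRNPM, 0.86 for SNRPD1, 0.92 for SCAF11 and -0.99 for SNRPN. Under that treatment SF3A2 stood above in CAL51 (7.05%), SNRPE in UACC-812 (3.93%), SREK1 (SFRS12) in MDA-MB-415 (7.61%) and SNRNP25 in SKBR3 (3.4%), where SNRPF and SNRPG stood below.

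The U2 particle recognises the branch point through SF3A and SF3B. SF3B1, the large subunit that clamps the branch helix, had 4204 RPKM in CAL51, against 2847 for MDA-MB-453, 2381 for T47D, 1932 for MDA-MB-415, 1671 for UACC-812 and 1356 for SKBR3. Its difference in CAL51 was 1.12 as deposited, 0.68 after TMM scaling and 0.55 with the GC trend removed, the highest of the lines each time. SF3A2, an SF3A subunit, had 752 in CAL51, against 323 for MDA-MB-453, 239 for UACC-812, 226 for T47D, 162 for MDA-MB-415 and 98.1 for SKBR3, with differences of 1.73, 1.55 and 1.81 in CAL51. The exons of SF3A2 overlap those of another gene, so its value is uncertain. In all 28 members are uncertain because they overlap or resemble another gene or, for HNRNPA3P1, were not found in the annotation, among those described below also SF3A1, U2AF1, U2AF1L4, SRSF1, SRSF2, SRSF9, SNRPN, SNRPB, SNRPD3, SNRPE, SNRPF, PRPF4, PRPF31, PRPF40B, HNRNPA1, HNRNPA2B1, HNRNPH2, HNRNPL, HNRNPUL2 and HNRNPA3P1. SF3B4, which binds pre-mRNA upstream of the branch point, was instead highest in UACC-812, with 604 there, against 97.6 for SKBR3, 162 for MDA-MB-415, 174 for MDA-MB-453, 268 for CAL51 and 320 for T47D. Its difference of 1.79 in UACC-812 was 1.59 after TMM scaling and 1.18 with the GC trend removed. SF3B3 was lowest in UACC-812, at 743, against 878 to 2244 in the other lines (differences of -1.16, -1.36 and -1.41). The partners of one complex therefore did not share 1 order of lines. SF3A1 and SF3B2 had differences of -1.89 and -1.42 in SKBR3 as deposited, of -1.0 and -0.74 after TMM scaling, and of -0.96 and -0.28 with the GC trend removed. SF3B6 (SF3B14), the small subunit at the branch adenosine, varied least of the 9 as deposited, between 76.6 in MDA-MB-415 and 198 in CAL51. The SF3A and SF3B median was 0.86, 0.36 and 0.42 in CAL51 and 0.52, 0.32 and 0.38 in MDA-MB-453.

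U2AF brings U2 to the 3′ splice site. U2AF2, which binds the polypyrimidine tract, had 398 in SKBR3, against 1646 for CAL51, 1445 for UACC-812, 1315 for MDA-MB-415, 1117 for MDA-MB-453 and 904 for T47D. That difference of -1.72 in SKBR3 was -1.06 after TMM scaling and -0.51 with the GC trend removed, and 61.1% of the bases of its transcript are G or C. U2AF1, which reads the AG at the intron end, lay between 217 in SKBR3 and 658 in CAL51. It is counted as uncertain because 93.8% of its 50-base words occur in the entry U2AF1L5 of the annotation used here. Whether the hg19 reference named by the submitters holds that entry was not examined. U2AF1L4, its paralogue, was lowest in SKBR3 as deposited (20.2, against 36.2 to 75.6 in the other lines, a difference of -1.41), but its difference was 0.02 once the GC trend was removed.

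Sm proteins form the ring around the snRNAs. SNRPN, an imprinted gene whose protein can replace SmB and which shares exons with SNURF, had the widest range of the 85 members under each treatment, 3.56, 2.84 and 2.73 log2 units. It stood at 45.6 in SKBR3, against 547 for CAL51, 515 for T47D, 466 for MDA-MB-415, 305 for MDA-MB-453 and 176 for UACC-812. SKBR3 and UACC-812 are the 2 low lines, with TMM-scaled differences of -2.62 and -1.48. SNRPB, which encodes SmB itself, ran from 380 in SKBR3 to 1359 in CAL51. SNRPD1 had 683 in CAL51, against 249 for UACC-812, 237 for MDA-MB-453, 167 for SKBR3, 162 for MDA-MB-415, and 152 for T47D. Its differences in CAL51 were 2.02, 1.31 and 1.36. SNRPG (2628, against 467 to 1194 in the other lines) and SNRPF (582, against 81.75 to 372) were also highest in CAL51, with TMM-scaled differences of 0.99 and 1.35, and both were lowest in SKBR3, at -0.62 and -0.72 after TMM scaling and at -1.39 and -1.62 with the GC trend removed. SNRPE departed from them: it had 2521 in UACC-812, against 1647 for MDA-MB-453, 1263 for SKBR3, 1173 for CAL51, 777 for T47D and 621 for MDA-MB-415. SNRPD3 had a TMM-scaled difference of -1.23 in SKBR3 (90.0, against 259.7 to 450.5 in the other lines). Over the 8 ring genes the median in CAL51 was 1.0, 0.66 and 0.69. Among the U1 proteins, SNRNP70, which holds the U1 RNA, ranged from 166 in SKBR3 to 750 in UACC-812, SNRPC from 80.3 in SKBR3 to 301 in CAL51, and SNRPA, at 95.9, 95.3 and 96.1 in SKBR3, MDA-MB-453 and CAL51, had a range of 0.92 as deposited, but of 1.42 and 2.05 under the other 2 treatments, where SKBR3 was highest (1.13 and 1.41).

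In the tri-snRNP, SNRNP200, the helicase that unwinds U4 from U6, set MDA-MB-415 apart. It had 1672 in MDA-MB-415, against 5171 for CAL51, 4475 for T47D, 4468 for MDA-MB-453, 4194 for UACC-812 and 2547 for SKBR3. The low value stood at -1.42, -1.15 and -1.31 under the 3 treatments, and after TMM scaling the differences of the other 5 lines lay between -0.13 and 0.21. PRPF3, a U4/U6 protein, was also low in MDA-MB-415 (155 RPKM, against 146 in SKBR3 and 344 to 482 in the other lines; TMM-scaled difference -1.22). PRPF4, its partner in the same particle, had 779.5 in CAL51 and 536 in T47D. The other values were 177 for MDA-MB-453, 167 for SKBR3, 161 for UACC-812 and 151 for MDA-MB-415. PRPF4 differences were 2.21, 1.79 and 1.72 in CAL51 and 1.67, 1.43 and 1.43 in T47D. SNRNP40, a WD-repeat protein of U5, had 909 in CAL51, against 422 for MDA-MB-453, 230 for SKBR3, 202 for T47D, 158 for UACC-812 and 152 for MDA-MB-415, with differences of 2.16, 1.98 and 1.88 in CAL51. PRPF8, the largest protein at the catalytic centre, had 4890 in CAL51, against 2973 for T47D, 2505 for UACC-812, 1754 for MDA-MB-415, 1615 for MDA-MB-453 and 1611 for SKBR3 (0.82 in CAL51 after TMM scaling). PRPF6, which bridges U5 to U4/U6, was highest in T47D (1455, against 385 to 1078 in the other lines), as was PRPF19, a ubiquitin ligase of the activated spliceosome (3278, against 1057 to 2143). PRPF31, which stabilises U4/U6, was lowest in SKBR3 and T47D (176 and 287), against 385 in MDA-MB-453 and 764 to 839.9 in the other 3 lines, and exons of another gene overlap it. Of the 3 U11/U12 proteins, which serve the minor spliceosome, SNRNP25 and SNRNP48 were lowest in MDA-MB-415 and SNRNP35 in CAL51. SNRNP25 had 109 in MDA-MB-415, against 187 to 324 in the other lines (differences of -1.40, -1.02 and -1.41).

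PRPF40B split the lines into 2 sets of 3. This gene, related to a yeast U1 protein, stood at 254 for UACC-812, 238 for T47D and 211 for MDA-MB-415, against 79.2 for CAL51, 68.0 for MDA-MB-453 and 32.8 for SKBR3. These 2 sets were read from the values themselves, and the share of all genes with such a split was not counted. Every line lay at least 1.32 log2 units from the median of the others under each treatment. PRPF40B is counted as uncertain because another gene overlaps its exons.

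**Figure D4:**
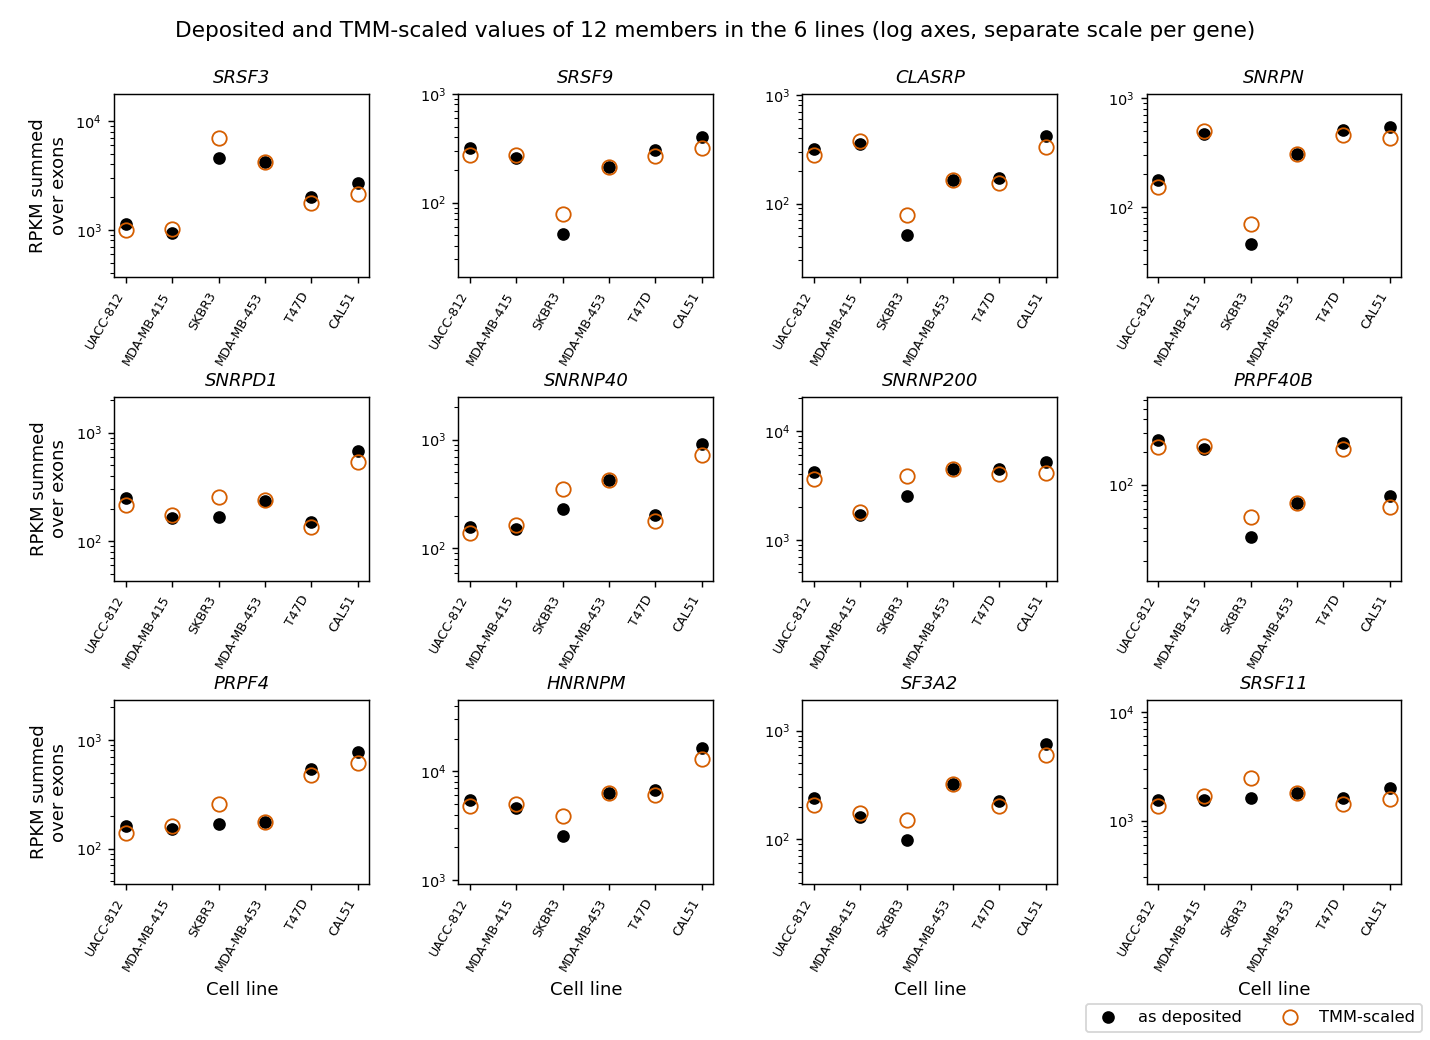
RPKM summed over exons (y axes, log scales that differ between panels) of 12 members in the 6 lines (x axes), as deposited (filled) and TMM-scaled (open). SRSF9 and SNRPN drop in SKBR3 under both, SNRPD1, SNRNP40 and HNRNPM peak in CAL51, SNRNP200 is lowest in MDA-MB-415, and SRSF11 stays between 1551 and 1986 as deposited.

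The SR family showed both the steadiest gene as deposited and some of the widest. SRSF11 (SFRS11) stood at 1986 for CAL51, 1790 for MDA-MB-453, 1617 for SKBR3, 1595 for T47D, 1558 for UACC-812 and 1551 for MDA-MB-415, a range of 0.36 log2 units that was 0.85 after TMM scaling and 0.43 with the GC trend removed. SRSF3, the smallest SR protein, had 4568 in SKBR3 and 4176 in MDA-MB-453, against 2708 for CAL51, 1990 for T47D, 1138 for UACC-812 and 943 for MDA-MB-415. The differences in SKBR3 were 1.20, 1.97 and 1.33, and MDA-MB-453 followed at 1.07, 1.24 and 0.93. SRSF9 went the other way: it had 51.6 in SKBR3, against 399.8 for CAL51, 317 for UACC-812, 303 for T47D, 257 for MDA-MB-415 and 215 for MDA-MB-453. The difference in SKBR3 was -2.53, -1.80 and -1.62, while the 5 other lines stayed between -0.36 and 0.22 after TMM scaling. Exons of GATC overlap SRSF9 on the other strand, and the strand setting of the counting is not given in the sources used here. SRSF7 was highest in CAL51 (978, against 219 to 498 in the other lines). SRSF1 (SFRS1), the founding SR protein, ran from 128 in MDA-MB-415 to 391 in CAL51, SRSF2 (SFRS2) from 409 in MDA-MB-415 to 1180 in CAL51, and SRSF6 (SFRS6) lay between 794.0 (CAL51) and 1272 (MDA-MB-453). Their TMM-scaled ranges were 1.16, 1.28 and 1.27.

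Among the SR-related genes, CLASRP, which interacts with the kinase CLK4, had 51.2 in SKBR3, against 419 for CAL51, 352 for MDA-MB-415, 320 for UACC-812, 173 for T47D and 164 for MDA-MB-453. Its difference in SKBR3 was -2.62, -1.83 and -1.05, and its transcript has 60.2% GC. AKAP17A, an anchoring protein of protein kinase A found with the spliceosome, had 139 in UACC-812, against 64.2 for MDA-MB-415, 36.4 for T47D, 31.5 for CAL51, 26.2 for MDA-MB-453 and 12.4 for SKBR3. SCAF11 had 1183 in SKBR3, against 746 for CAL51, 659 for MDA-MB-453, 639 for T47D, 447 for MDA-MB-415 and 425 for UACC-812 (0.89, 1.66 and 1.02 in SKBR3). SCAF4, which binds the RNA polymerase II tail, was lowest in MDA-MB-415 at 174, against 369.7 to 530.4 in the other lines (differences of -1.32, -1.08 and -1.14). SFSWAP (SFRS8), the human relative of a fly splicing regulator, was lowest in SKBR3 (57.6, against 157 to 298), but its difference of -1.76 was -0.66 with the GC trend removed.

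CAL51 had the highest value of 17 of the 21 HNRNP genes as deposited, where it was highest for 27.9% of all genes, and of 12 after TMM scaling, against 18.3%. Their median difference in CAL51 was 0.84, 0.60 and 0.53, the highest family median of that line after TMM scaling, and 10 of 21 were at least 2-fold above the others as deposited and 6 of 21 after TMM scaling, against 26.0% and 18.9% of all genes. Of the 6 after TMM scaling, only HNRNPA0, HNRNPD and HNRNPM are not counted as uncertain. The others, HNRNPL and HNRNPA3P1 among them, overlap or resemble another gene or were not found in the annotation. HNRNPM, which binds GU-rich RNA, had 16403 in CAL51, against 6799.9 for T47D, 6281 for MDA-MB-453, 5496 for UACC-812, 4648 for MDA-MB-415 and 2533 for SKBR3. It lay 1.58, 1.38 and 1.50 above the others in CAL51. HNRNPA1, a repressor of exon inclusion with many processed copies in the genome, had 11349 in CAL51, against 6620 for MDA-MB-453, 6456 for UACC-812, 5061 for T47D, 5019 for SKBR3 and 4282 for MDA-MB-415. HNRNPD, which binds AU-rich elements, had 3836 in CAL51 and 2525 in MDA-MB-453, against 1688 for SKBR3, 1490 for T47D, 1173 for UACC-812 and 833 for MDA-MB-415. HNRNPK (10510.0, against 3120 to 5649 in the other lines) and HNRNPA0 (101, against 32.4 to 40.8) shared the peak in CAL51. HNRNPA2B1 did not: it had 25019 in T47D, against 18863 for MDA-MB-453, 15202 for CAL51, 15188 for SKBR3, 12804 for UACC-812 and 8409 for MDA-MB-415. After TMM scaling SKBR3 was its highest line, with a difference of 0.94, next to 0.90 in T47D. HNRNPUL2 was lowest in CAL51, at 1722, against 2134 to 2622 in the other lines, with a range of 0.61 as deposited, but of 1.44 and 1.39 under the other 2 treatments. HNRNPC, which coats uridine tracts, spanned 6100.0 in SKBR3 to 13123 in CAL51, and HNRNPU, a scaffold-binding protein, 2104 in SKBR3 to 5638 in CAL51, with TMM-scaled ranges of 0.63 and 0.66. HNRNPUL1 and HNRNPH2 had differences of -1.36 and -1.20 in SKBR3 as deposited, of -0.76 and -0.50 after TMM scaling, and of -0.13 and -0.89 with the GC trend removed. HNRNPA3P1, listed between 3.28 and 15.5, carries the name of a pseudogene and was not found in the annotation used here.

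Ratios between 2 genes of the same library do not depend on how libraries are scaled, and 10 pairs were chosen for this after values had been seen. The ratio of SRSF3 to SRSF7 was 4.20 log2 units in SKBR3, against 3.07 for MDA-MB-453, 2.88 for T47D, 2.11 for MDA-MB-415, 1.47 for CAL51 and 1.32 for UACC-812. SRSF9 to SRSF1 stood at -1.58 in SKBR3 and 1.01 in MDA-MB-415, against -0.12 to 0.09 in the other 4 lines. SNRPN to SNRPB was -3.06 in SKBR3, against -1.87 for UACC-812, -1.31 for CAL51, -0.99 for MDA-MB-453, -0.43 for T47D and -0.34 for MDA-MB-415. These 3 ratios put SKBR3 at one end of the lines. HNRNPA2B1 to HNRNPA1 was highest in T47D (2.31) and lowest in CAL51 (0.42), and PRPF4 to PRPF3 was highest in CAL51 (1.18) and lowest in UACC-812 (-1.58). U2AF2 to U2AF1 varied less, between 0.88 in SKBR3 and 2.02 in MDA-MB-415. A ratio shows unequal differences only, and the GC contents of 2 genes can differ.

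**Figure D5:**
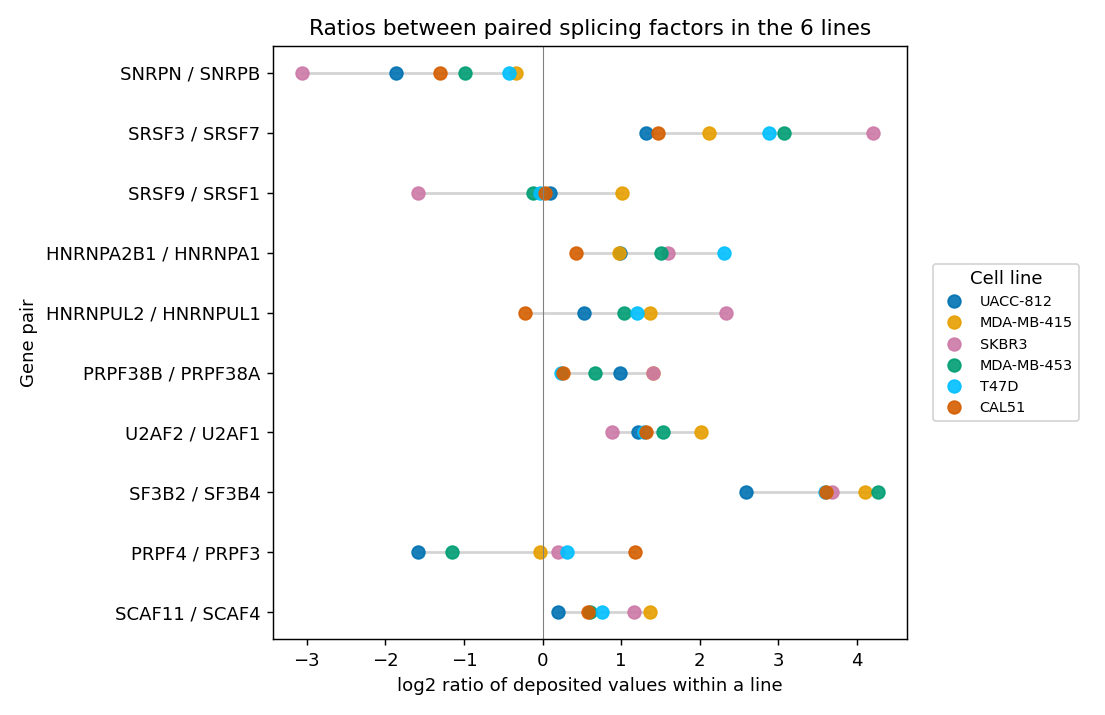
Log2 ratio of the deposited values of 2 genes in the same library (x axis) for 10 pairs (y axis), with 1 point for each cell line and a grey bar over the range. SRSF3 over SRSF7 is highest in SKBR3 at 4.20, and SRSF9 over SRSF1 and SNRPN over SNRPB are lowest there.

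Of 77 other core splicing genes outside the prefix rule 74 were measured, and they too were highest in CAL51 by their median. Their median difference in CAL51 was 0.51 as deposited, 0.16 after TMM scaling and 0.25 with the GC trend removed, while in SKBR3 it was -0.96, -0.24 and -0.41. After TMM scaling 5 of the 74 were 2-fold above and 3 below in CAL51, fewer than the 18.9% of all genes on each side. LSM2, of the ring that binds U6 RNA, had 1060 in CAL51, against 105 to 198 in the other lines, and CASC3, a protein of the exon junction complex, had 10006 in UACC-812, against 200 to 1209 in the other lines. Among 8 kinases and regulators of SR proteins, CLK1 was lowest in UACC-812 (295, against 683 to 1982) and SRPK1 highest in CAL51 (974, against 236 to 540); their median in CAL51 was 0.26, -0.15 and -0.07, below the 0.45 and 0.25 of MDA-MB-453 under the last 2 treatments. Of 43 measured splicing regulators, ESRP1, a regulator of epithelial splicing, was lowest in CAL51. It had 12.4 in CAL51, against 313 to 1349 in the other lines, with ESRP2 at 72.4 in CAL51 and 88.3 in SKBR3, against 183 to 586 in the other 4. PTBP1, a repressor of exons beside pyrimidine tracts, was highest in CAL51 (2489, against 357 to 1228), and its neural paralogue PTBP2 was lowest in UACC-812 (42.0, against 97.6 to 228). A list of 25 proliferation genes ordered the lines in part as the members did: its TMM-scaled median was 1.65 for CAL51, 1.19 for MDA-MB-453 and 0.87 for SKBR3, against -0.57 for T47D, -1.15 for UACC-812 and -1.94 for MDA-MB-415. Its part in the differences of the splicing families was not tested.

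The ETS motif was more frequent in promoters of the members than in those of all genes, in counts for which no test was made. RefSeq promoter windows on GRCh38.p14, 250 bases before to 50 after a gene's start, were found for 73 of the 85 members. These had 98 windows, and a gene counted when any of its windows held the motif. The other genes were not matched to the members in expression or base composition. The median window held 27 CG dinucleotides and 61.7% GC for the members, against 23 and 63.7% for all windows. Of these, 27 (37.0%) held the ETS motif CCGGAAG on either strand, against 19.5% of 12349 genes of the table with a window. The YY1 motif ATGGCGGC was in 12.3% of members against 6.33%, the E-box CACGTG in 15.1% against 11.9%, the TATA box TATAAA in 12.3% against 9.86% and the CCAAT box CCAAT in 49.3% against 42.6%. The GC box GGGCGG was less frequent, 61.6% against 72.2%, and the NRF1 motif was in 0 of 73 against 2.34%. A match is a description and not a binding site. The windows below are those of 3 members that stood apart in different lines, SRSF3 in SKBR3 (chr6:36594112-36594411, plus strand), HNRNPM in CAL51 (chr19:8444725-8445024, plus strand) and SNRNP200 in MDA-MB-415 (chr2:96305497-96305796, minus strand), with matches on either strand in capitals.
SRSF3: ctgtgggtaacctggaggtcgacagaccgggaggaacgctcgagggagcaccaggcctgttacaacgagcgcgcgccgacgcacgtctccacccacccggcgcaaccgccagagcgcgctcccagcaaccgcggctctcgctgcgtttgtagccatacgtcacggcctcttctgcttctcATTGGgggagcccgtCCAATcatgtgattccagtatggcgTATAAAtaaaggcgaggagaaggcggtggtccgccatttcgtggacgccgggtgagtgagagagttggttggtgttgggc
HNRNPM: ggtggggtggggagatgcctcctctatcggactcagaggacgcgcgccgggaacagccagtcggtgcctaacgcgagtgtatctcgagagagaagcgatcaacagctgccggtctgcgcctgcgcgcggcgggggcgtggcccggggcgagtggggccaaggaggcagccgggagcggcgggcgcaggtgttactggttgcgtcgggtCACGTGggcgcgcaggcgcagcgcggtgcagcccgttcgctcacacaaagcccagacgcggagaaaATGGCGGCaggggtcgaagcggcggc
SNRNP200: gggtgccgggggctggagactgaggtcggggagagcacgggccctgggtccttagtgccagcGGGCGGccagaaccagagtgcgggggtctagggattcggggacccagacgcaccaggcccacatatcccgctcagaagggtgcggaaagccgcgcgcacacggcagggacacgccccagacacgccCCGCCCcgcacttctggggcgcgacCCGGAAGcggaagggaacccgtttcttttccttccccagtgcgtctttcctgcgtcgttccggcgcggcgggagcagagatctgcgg
The SRSF3 window holds a TATA box and 2 CCAAT boxes, the HNRNPM window an E-box and a YY1 motif, and the SNRNP200 window an ETS motif and 2 GC boxes. The 3 genes thus share none of the 7 motifs, and the SRSF9 window holds none of them.

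Neighbours on the chromosome were read for the members that lay 2-fold beyond every other line after TMM scaling. The values of the neighbours are TMM-scaled too, and they were not read with the GC trend removed. The 10 nearest measured genes of SNRPN had a median of -1.82 in SKBR3, where SNRPN itself was at -2.62, and 6 of the 10 were at least 2-fold below. These 10 include SNURF, which shares exons with SNRPN, and PAR-SN and 3 SNORD116 entries of the same imprinted region, so they are not independent of it. Around SRSF9 the median was -0.98 in SKBR3 with 4 of 10 at least 2-fold below, and around SCAF11 it was 0.91 in SKBR3 with 4 of 10 at least 2-fold above. The 10 around SRSF9 include GATC, whose exons overlap those of SRSF9, so they are not fully independent of it. The neighbours of HNRNPM and SNRPD1 had medians of 0.53 and 0.34 in CAL51, with 3 of 10 each at least 2-fold above. SNRNP200 differed from its surroundings: the 10 genes beside it had a median of 0.46 in MDA-MB-415, where SNRNP200 was at -1.15, and 1 of the 10 was at least 2-fold below. Copy number of these regions was not analysed here.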

How the data were processed

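The members, gene lists and comparisons were chosen with earlier results of these data known, and the 10 gene pairs, the promoters printed and the GC correction were chosen after values had been seen. Libraries were made from total RNA with the PrepX mRNA kit on an Apollo 324, per the labels' protocols, and the submitters' processing notes name CASAVA 1.8, RSEM and hg19. The authors deposited 1 table of 16444 rows with a value for each line. No label names its unit: the values follow RPKM summed over exons as deposited by the authors, since low values of genes are whole multiples of 1 read for 30.3% to 37.1% of low single-exon genes, against medians of 1.62% to 1.77% for other constants (tolerance 0.01 reads). Rows with date names (22) and with duplicate names (4) were left out, which left 16418 genes.

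Values were used as log2(value + 1), and each line was set against the median of the 5 others. With 1 library for each line no test was possible, and depth-based limits cover counting error only. TMM trimmed 30% of log ratios and 5% of levels. The GC correction took off each line's median trend over 30 bins of well expressed genes, by the GC content of the longest coding transcript in GENCODE 29, which 15197 genes and 84 members had. Named genes were, in each family, up to 4 with the widest and 1 with the narrowest range, all members 2-fold beyond every other line, and well-known members chosen by role; genes outside that rule were named after their values were seen. Members whose exons overlap another coding gene, of whose 50-base words 20% or more occur in other genes, or that were not found in the annotation count as uncertain (28 of 85). The values of 1 member and 1 marker gene are not reported here, though the member is in the counts and medians. Promoter sequences are RefSeq's on GRCh38.p14. Work was done in Python 3.11.15 with numpy 2.4.6, pandas 2.3.3, scipy 1.17.1 and matplotlib 3.10.9, and tested on simulated data.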

Additional observations from a re-analysis of the deposited data

How the results depend on the processing

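No paired analysis was possible because each line has 1 library. The counts of members depend on scaling, and the cause of each change was not tested. The values below are the median relative to all genes, or the count of members past 2-fold above or below the middle value of the 5 other lines, or past 2-fold beyond every other line. The share of all genes past 2-fold moves with the scaling too. In SKBR3, 9.41% of all genes lay above as deposited, 20.1% after TMM scaling and 16.5% with the GC trend removed. Where no share of all genes is given, a count shows only how the number of members moves.

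With TMM scaling the number above was 4 for UACC-812, 7 for MDA-MB-415, 9 for SKBR3, 5 for MDA-MB-453 and 14 for CAL51, the number below 8 for SKBR3, 3 for T47D and 2 for CAL51, the number above every other line 0 for UACC-812, 1 for SKBR3 and 2 for CAL51, and the number below every other line 2 for SKBR3. The member median in SKBR3 was then -0.07 (-0.30 as deposited), the HNRNP median in T47D -0.31 (-0.03) and the SF3A and SF3B median in CAL51 0.36 (0.63). With median-of-ratios scaling the number above was 4 for UACC-812, 7 for MDA-MB-415 and in SKBR3 and 16 for CAL51, below 9 for SKBR3, 3 for T47D and 2 for CAL51, above every other line 0, 1 and 2 for UACC-812, SKBR3 and CAL51, below every other line 0 for MDA-MB-415 and 3 for SKBR3, and the SF3A and SF3B median in MDA-MB-415 -0.26 (-0.55). With upper-quartile scaling the number above was 5 for SKBR3 and 15 for CAL51, below 12, 3 and 2 for SKBR3, T47D and CAL51, above every other line 0, 1 and 2 for UACC-812, SKBR3 and CAL51, and below every other line 0 for MDA-MB-415 and 4 for SKBR3.

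With TMM and the GC correction, added after seeing the data, the number above was 5 for UACC-812, 7 for SKBR3, 1 for MDA-MB-453 and 12 for CAL51, below 4, 12, 2 and 2 for MDA-MB-415, SKBR3, MDA-MB-453 and CAL51, above every other line 1 each in MDA-MB-415, SKBR3 and CAL51, and below every other line 3 for SKBR3. U2AF1L4 and PRPF6 for SKBR3 reversed, to 0.02 and 0.04. Without the uncertain members 57 were left, so the counts fall with the number of members. As deposited, the number above was then 4, 2, 0 and 16 for UACC-812, MDA-MB-415, T47D and CAL51. The number below was 2, 17, 0, 0 and 0 for UACC-812, SKBR3, MDA-MB-453, T47D and CAL51, and below every other line 7 for SKBR3. The share above in CAL51 was 28.1%, against 30.6% of all 85 members, and the share below in SKBR3 was 29.8%, against 32.9%. Against the mean of the others the number above was 1 for MDA-MB-453 and 5 for T47D, below 2, 0, 0 and 0 for UACC-812, MDA-MB-453, T47D and CAL51, the member median in MDA-MB-453 0.28 and the SF3A and SF3B median in MDA-MB-415 -0.12. Against well expressed genes the member median in MDA-MB-415 was -0.13, and with a pseudocount of 5 the number above in SKBR3 was 1.

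Leaving out each other line in turn gave -0.78 to -0.25 for the PRPF and -0.55 to -0.19 for the SF3A and SF3B median in MDA-MB-415, and 0.07 to 0.30 for the member median in MDA-MB-453. The number above ranged over 4 to 8 for UACC-812, 0 to 4 for MDA-MB-415, 0 to 3 for SKBR3, 0 to 5 for MDA-MB-453 and 1 to 4 for T47D, and below over 2 to 4 for UACC-812, 6 to 14 for MDA-MB-415, 0 to 3 for MDA-MB-453, 0 to 2 for T47D and 0 to 1 for CAL51. Above every other line it ranged over 6 to 11 for CAL51, 0 to 1 for T47D and 1 to 2 for UACC-812, and below every other line over 1 to 3 for MDA-MB-415.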
